A study of Mus musculus with 82 samples.

Results

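The genes described here are 34 mouse genes of glycolysis and lactate handling, taken by symbol from the 55376 genes counted in every RNA library. They cover the glucose transporters (Slc2a1, Slc2a3), hexokinases (Hk1, Hk2, Hk3), the later steps down to pyruvate kinase (Gpi1, Pfkl, Pfkm, Pfkp, Aldoa, Aldoc, Tpi1, Gapdh, Pgk1, Pgam1, Eno1, Eno2, Eno3, Pkm, Pklr), the bifunctional enzymes that set fructose-2,6-bisphosphate (Pfkfb1 to Pfkfb4), lactate dehydrogenase (Ldha, Ldhb), monocarboxylate transporters (Slc16a1, Slc16a3), the gate into mitochondria (Pdha1 and Pdk1 to Pdk4) and the transcription factor Hif1a. All 34 symbols were found.

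The RNA came from bone marrow hematopoietic stem cells (HSC) and progenitors of wild-type mice, C57BL/6J where the methods name a strain. Fresh HSC were sorted as Lin- Sca1+ c-Kit+ CD34- Flk2- CD150+ cells, from pooled young male mice for the 4 young libraries and from individual old male mice for the 8 old libraries. In a second experiment old HSC received a lentiviral control hairpin (shCtrl) or 1 of 2 hairpins aimed at a short variant of Btaf1. The full-length form encodes an ATPase that strips TATA-binding protein from DNA. According to the study, the short form can bind that protein but has no ATPase domain. GFP+ cells were taken after culture, and HSC of donor origin were taken after transplantation into irradiated recipients, several of which were pooled per library, with 2 libraries for each hairpin in each setting. In that experiment all cells are old, transduced and GFP+, controls included. Common myeloid progenitors (CMP), granulocyte-monocyte progenitors (GMP) and megakaryocyte-erythroid progenitors (MEP) of young mice had 2 libraries each, which share 1 batch label. Used here were 4 young and 4 old ATAC-seq libraries, 2 young and 2 old H3K27ac ChIP-seq libraries, and H3K4me3 and H3K27me3 libraries of young HSC.

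Glycolysis turns glucose into pyruvate in the cytosol. Pyruvate then either becomes lactate, through lactate dehydrogenase, and leaves by a monocarboxylate transporter, or enters mitochondria through pyruvate dehydrogenase, which the PDK kinases switch off. Many of the steps have several isoenzymes that differ between tissues, such as Pklr in red cells and liver in place of Pkm. HSC are known for a high reliance on glycolysis in their hypoxic niche, where the factor HIF-1 binds the core letters ACGTG or GCGTG and raises many of these genes.

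The promoters below show that core at 3 genes whose RNA moved with age or with culture, and the Pklr promoter shows letters that GATA and CACCC-box factors read. Each runs from 250 bases before to 50 bases after a RefSeq start on GRCm38.p6, 5′ to 3′ on the strand of the gene. The Ldha promoter is chr7:46845554-46845853 on the plus strand, Slc16a3 is chr11:120948817-120949116 on the plus strand, Hk2 is chr6:82774405-82774704 on the minus strand and Pklr is chr3:89135892-89136191 on the plus strand. Capitals mark ACGTG or GCGTG on either strand (CACGT and CACGC are their reverse complements) in the first 3, and AGATAA and GGGTG, the reverse complement of CACCC, in Pklr.
Ldha: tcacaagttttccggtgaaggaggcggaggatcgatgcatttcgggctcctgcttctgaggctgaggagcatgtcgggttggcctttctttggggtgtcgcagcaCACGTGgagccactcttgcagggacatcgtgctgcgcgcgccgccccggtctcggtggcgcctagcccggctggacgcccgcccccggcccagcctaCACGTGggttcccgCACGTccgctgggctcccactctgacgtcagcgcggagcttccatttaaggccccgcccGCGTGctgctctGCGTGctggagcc
Slc16a3: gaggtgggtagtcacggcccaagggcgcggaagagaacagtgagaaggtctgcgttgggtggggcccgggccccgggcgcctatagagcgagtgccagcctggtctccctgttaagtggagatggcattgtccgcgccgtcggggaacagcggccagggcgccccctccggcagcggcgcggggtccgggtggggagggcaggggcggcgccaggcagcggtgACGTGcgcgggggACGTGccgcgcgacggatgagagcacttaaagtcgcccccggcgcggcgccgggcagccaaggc
Hk2: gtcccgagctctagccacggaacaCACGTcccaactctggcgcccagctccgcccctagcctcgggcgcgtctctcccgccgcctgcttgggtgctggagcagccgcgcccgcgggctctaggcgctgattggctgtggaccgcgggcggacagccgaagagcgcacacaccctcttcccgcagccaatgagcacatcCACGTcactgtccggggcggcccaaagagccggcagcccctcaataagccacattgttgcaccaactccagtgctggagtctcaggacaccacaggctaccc
Pklr: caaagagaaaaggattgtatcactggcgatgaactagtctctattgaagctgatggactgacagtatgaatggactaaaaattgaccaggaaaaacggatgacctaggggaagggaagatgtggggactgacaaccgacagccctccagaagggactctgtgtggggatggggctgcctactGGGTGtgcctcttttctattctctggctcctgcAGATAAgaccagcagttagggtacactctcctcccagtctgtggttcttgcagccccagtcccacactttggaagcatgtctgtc

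Across all 32851 mouse promoters of this length, 43.8% held ACGTG or GCGTG on either strand. Of the 53 promoters listed for 33 of the 34 genes, 39 held it (73.6%), at 29 genes. ACGTG alone stood in 19.6% of all promoters and in 43.4% of these 53. Ldha had the core at 7 places, with each of its 2 palindromic CACGTG stretches counted on both strands. A Hk1 promoter had it at 5 places with no CACGTG, so Ldha is not ranked above it. Pklr, Gpi1, Tpi1 and Eno2 had the core at none of their promoters. AGATAA, the letters GATA factors read, stood in 11.2% of all promoters and in 17.0% of the 53, and CACCC in 57.5% and 69.8%. A match is a description of these letters and not of binding.

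Depth was 20475764 to 24654742 gene reads in fresh HSC libraries, 37292602 to 42737054 in hairpin libraries, 33177394 to 36510850 in progenitors and 15427933 to 26260337 reads in regions for ATAC-seq. HSC genes marked the fresh HSC, with the summed CPM (gene counts scaled to the library's total gene reads) of 8 markers such as Procr and Mecom at 1693 to 1970.1 in old and 1772 to 1856 in young libraries, against 63.3 to 63.8 in CMP. The libraries labelled MEP carried erythroid markers (sum of 10 genes 7343 to 7703 CPM) but few megakaryocyte markers (sum of 8 genes 24.4 to 25.4 CPM, with 3 of the 8 below 0.1 CPM). Because the libraries are bulk, fewer cells of a type and less RNA per cell cannot be told apart.

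In young HSC the pathway was carried by a small set of isoenzymes. Levels were put on a scale of CPM per kilobase of exon, with all annotated exons of a gene joined into 1 length. This length can exceed that of the RNA present, so the order of genes on this scale is approximate. Ldha stood highest at 281 ± 5.24 (SD, n = 4). Pkm followed at 166 ± 2.71, Aldoa at 154 ± 6.89, Gapdh at 151 ± 2.07, Tpi1 at 129.98 ± 3.23 and Ldhb at 105 ± 1.75. The levels of Aldoa and Gapdh lay within their spread of each other. Among hexokinases Hk1 stood at 46.2 ± 1.04, Hk3 at 12.8 ± 0.771 and Hk2 at 4.87 ± 0.465. Slc2a3 stood at 32.6 ± 1.22 against 20.4 ± 1.21 for Slc2a1. The exporter Slc16a3 (1.14 ± 0.116), the red cell isoenzyme Pklr (0.948 ± 0.137) and Pfkfb1 (0.871 ± 0.275) were the lowest of the 34. Gapdh, Ldha, Pgk1, Pgam1, Aldoa and Eno1 have near-identical processed copies in the genome, so their counts are uncertain to the extent that reads were shared.

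**Figure D1:**
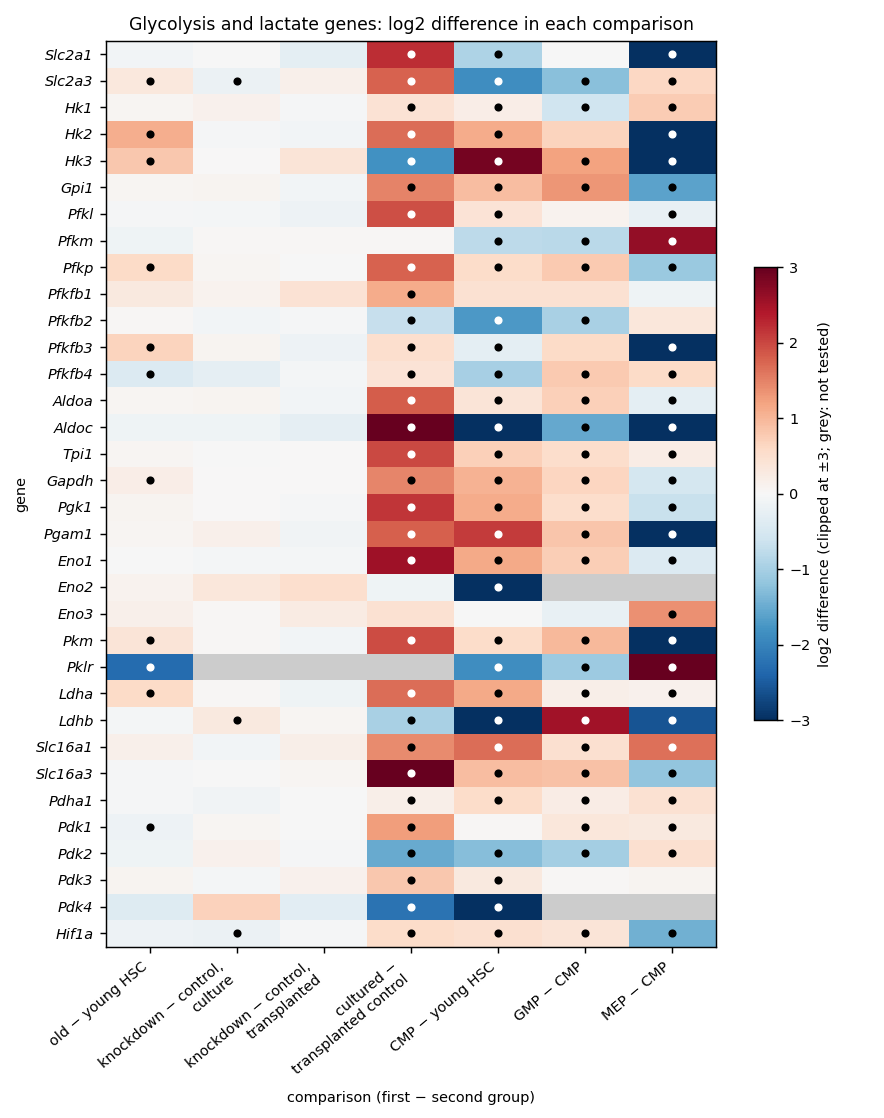
Log2 difference of each of the 34 genes (rows) in 7 comparisons (columns), fitted by edgeR, with the color clipped at 3 in either direction, dots for genes past the test at an adjusted p below 0.05 and grey for genes not tested. With age 11 genes were called and after knockdown 3 and 0, while the culture, CMP, GMP and MEP columns hold many dots, with 25 genes higher and 5 lower in cultured than transplanted control HSC.

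With age, RNA rose for Hk2 and Hk3 at the first step, for Pfkp at the committed step and for Gapdh, Pkm and Ldha further down. Of the 34 genes, 8 were higher and 3 lower in old than in young HSC by edgeR's quasi-likelihood test at an adjusted p below 0.05, that is 32.4% of them. Over all 21522 genes tested, 11.9% were higher, 8.67% lower and 20.6% called in either direction. The median log2 difference of the 34 genes was 0.06, against -0.01 over all genes. The 8 were Slc2a3, Hk2, Hk3, Pfkp, Pfkfb3, Gapdh, Pkm and Ldha, and DESeq2 also gave 8 and 3. Only Hk2, Hk3 and Pfkfb3 rose and only Pklr fell by more than 1.5-fold, where 4.69% of all genes were higher and 2.83% lower (7.52% in all).

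Hk2 encodes the inducible hexokinase, which traps glucose inside the cell. Its level was 25.3, 28.8, 31.1 and 31.2 CPM in the 4 young libraries, and in the 8 old libraries it ran from 49.8 through a median of 62.3 to 65.3 CPM. No old library overlapped a young one. The log2 difference was 1.09 ± 0.07 (SE, edgeR adjusted p = 1.44e-10), or 2.12-fold. Hk3, the hexokinase of myeloid cells, rose from 47.1 ± 2.84 (SD, n = 4) to 79.8 ± 2.54 CPM (SD, n = 8), by 0.80 on the log2 scale, again with no overlap. Hk1, the most abundant hexokinase, had 394 ± 8.88 and 400 ± 15.2 CPM and did not pass the test (log2 difference 0.06 ± 0.04, edgeR adjusted p = 0.347).

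The control point of phosphofructokinase showed changes in different directions. Pfkp, its platelet-type isoenzyme, had 141 to 152 CPM in young libraries and 206 to 227 CPM (median 211) in old ones, a log2 difference of 0.58 ± 0.04 (edgeR adjusted p = 2.84e-10). Pfkl and Pfkm did not pass, with log2 differences of -0.03 and -0.13. Pfkfb3, which makes the activator fructose-2,6-bisphosphate, had 46.6, 47.1, 49.6 and 51.8 CPM in young libraries. Old libraries ran from 60.8 through 72.3 to 93.3 CPM, all above the young ones but with a wide spread (log2 difference 0.67 ± 0.13, edgeR adjusted p = 0.00224). Its relative Pfkfb4 fell by 0.42 on the log2 scale, from 29.2 ± 0.216 to 21.3 ± 1.56 CPM, also without overlap. Pfkfb1 and Pfkfb2 did not pass the test.

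At the end of the pathway Ldha, the lactate-forming subunit, had 909, 930.2, 933 and 952 CPM in young libraries and 1264 to 1414 CPM (median 1343) in old ones. Every old library lay above every young one, with a log2 difference of 0.57 ± 0.04 (edgeR adjusted p = 1.57e-10). The heart-type subunit Ldhb did not pass, at 162 to 168 CPM in young and 145 to 165 CPM in old libraries (log2 difference -0.05). Pkm, the pyruvate kinase of most cells, rose from 830 ± 13.5 to 1060 ± 43.0 CPM (log2 difference 0.39 ± 0.04). Pklr fell by 2.30 ± 0.32 on the log2 scale (edgeR adjusted p = 6.9e-06), from 2.47, 3.03, 3.27 and 3.499 CPM in young libraries to 0.177 to 1.09 CPM in old ones. Both levels of Pklr are low, and the old and young libraries did not overlap.

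Of the glucose transporters 1 passed. Slc2a3, the high-affinity transporter, had 224 to 245 CPM in young and 271 to 303 CPM in old libraries (log2 difference 0.31 ± 0.04, edgeR adjusted p = 8.52e-06). Slc2a1 did not pass (68.3 to 77.4 against 63.0 to 70.2 CPM, log2 difference -0.07). Pdk1, a kinase that blocks pyruvate dehydrogenase, fell by 0.16 on the log2 scale (168 to 189 CPM in young, 142 to 168 in old, edgeR adjusted p = 0.0192), and this call was lost without young replicate 1 (adjusted p = 0.166), without young replicate 4 (0.0551) or with no filter on low counts (0.0756). Hif1a itself did not pass, at 83.0 to 98.4 CPM in young and 72.0 to 89.6 CPM in old libraries (log2 difference -0.14 ± 0.06, edgeR adjusted p = 0.114). It passed without old replicate 6 (-0.18, 0.0231), without young replicate 2 (-0.19, 0.0336) and with scaling by library size alone (-0.18, 0.0235). The monocarboxylate transporters Slc16a1 and Slc16a3 and the pyruvate dehydrogenase subunit Pdha1 had log2 differences of 0.15, -0.04 and -0.04, none past the test. The other 12 genes (Gpi1, Aldoa, Aldoc, Tpi1, Pgk1, Pgam1, Eno1, Eno2, Eno3, Pdk2, Pdk3 and Pdk4) did not pass either, with log2 differences from -0.39 for Pdk4 to 0.15 for Eno3.

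**Figure D2:**
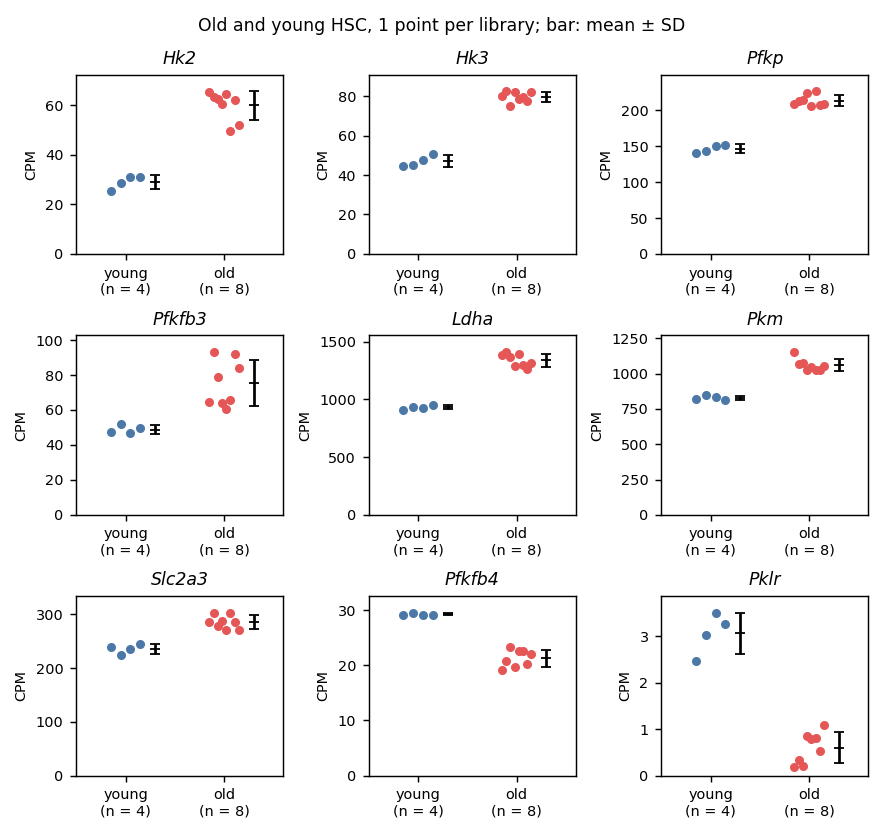
CPM of 9 genes in the 4 young and 8 old HSC libraries, 1 point per library, with the mean and SD as bars. Old libraries lie above all young ones for the first 7 genes and below them for Pfkfb4 and Pklr, and Pfkfb3 spreads from 60.8 to 93.3 CPM in old libraries.

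Each related list held genes higher and genes lower with age. Of 25 other glycolysis and pyruvate genes tested, 4 were higher and 2 lower, a share of 24.0% that lies near the 20.6% of all genes, among them the D-lactate dehydrogenase Ldhd (log2 difference 0.96) and the transporter Slc16a7 (-0.65). In the pentose phosphate pathway 2 of 7 genes were higher and 1 lower (42.9%), with 0.28 for its entry enzyme G6pdx. Of 8 regulators of the HIF pathway 1 was higher (Epas1, which encodes HIF-2 alpha, 0.96) and 3 were lower (50.0% in all), with Hif3a at -1.12. Of 11 other HIF target genes tested 1 was higher (Ndrg1, 1.23) and 3 lower (36.4% in all), with the growth factor gene Vegfa at -0.91.

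Markers of other cells and of division moved with age as well. The erythroid markers summed to 212 to 278 CPM in young and 80.5 to 251 CPM in old libraries, with 6 of 10 lower and 3 higher. The B cell markers summed to 121 to 250.3 and 34.6 to 199.99 CPM, with 6 of 7 lower. The granulocyte and monocyte markers summed to 565 to 778 and 695 to 840.4 CPM. Of 9 tested, 8 had a negative log2 difference (median of the 9 -1.77, against -0.01 over all genes), with Mpo called lower (-3.25). The one above 0 was Prtn3, called higher (1.32), at 120.4 to 136 CPM in young and 289.9 to 336 CPM in old libraries, so the sum goes against most of the list. S100a8 stood at 57.1 and 27.5 CPM in young libraries 3 and 4 and 26.6 CPM in old library 2, against 1.22 to 4.18 CPM in the others. Of 10 proliferation genes none was higher and 3 were lower (Cdk1 -0.71), and their sum was 621 to 685 CPM in young and 422 to 560.3 CPM in old libraries. Among 8 HSC markers 3 were higher (Slamf1 0.84) and 1 lower. Of 6 megakaryocyte markers tested 3 were higher and 2 lower (83.3%, against 20.6% of all genes). The sum of all 8 was 1701 to 1769 CPM in young and 2000.5 to 2312 CPM in old libraries. The part of these cells in the changes of the 34 genes was not tested.

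Chromatin at the genes was compared by ATAC-seq, which counts cuts in open DNA, at an adjusted p below 0.01. Of 41 accessible regions at the promoters of 32 of the genes, 15 at 14 genes were less open in old HSC and 1 was more open. Over the 15913 regions at the start of any protein-coding gene, 24.8% were lower and 3.94% higher, beside 36.6% and 2.44% here. The 15 log2 differences ran from -0.45 to -0.17, none past 1.5-fold (2.07% of regions at starts). They included promoter regions of Ldha (-0.21), Pfkp (-0.27), Gapdh (-0.27) and Slc2a3 (-0.23 and -0.26), whose RNA rose. The higher region lies upstream of Ldha at chr7:46840381-46840644 (3.43 ± 0.443 to 5.24 ± 0.505 CPM, SD, n = 4 each, log2 difference 0.59). Its call was lost without old replicate 8 or young replicate 3.

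Away from promoters, 98 regions lay in or near 27 of the genes, and 76 of them, at 22 genes, passed the filter on low counts. Of these 11 were higher and 9 lower (14.5% and 11.8%; past 1.5-fold 8 and 3), against 15.8% and 6.22% of the 73332 regions away from starts over the genome (11.9% and 3.09% past 1.5-fold). The 11 lay at Hk1, Hk2, Pfkp, Pfkfb2, Pfkfb3 and Pdk3. The 9 lay at 5 genes, 4 of them at Pfkfb4, with the largest fall of 0.99 on the log2 scale, and the count of 9 was 5 without old replicate 6 or old replicate 8. The Pfkfb4 region with that fall, chr9:108999158-108999415, lost its call without old replicate 8 (-0.75, edgeR adjusted p = 0.0218). It met the filter on low counts through the young libraries, with 1.96 to 2.46 CPM there and 0.586 to 2.03 CPM in old ones. The Pfkfb4 region at chr9:108995310-108995524 lost its call without old replicate 5, 6 or 8 or young replicate 2 or 3 (adjusted p 0.0133 to 0.0174).

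At Pfkp a region in an intron, 6.1 kb inside the gene at chr13:6642418-6642935, had 8.75, 9.34, 9.56 and 10.7 CPM in young libraries and 25.7, 26.3, 27.7 and 30.7 CPM in old ones. The log2 difference was 1.505 ± 0.08 (edgeR adjusted p = 9.84e-22). At Pfkfb3 an intronic region at chr2:11512920-11513716, 40.8 kb from the outermost start, had 2.14 to 3.96 CPM in young and 8.03 to 10.2 CPM in old libraries (log2 difference 1.39 ± 0.14). Other intronic regions of Pfkfb3 rose by 1.17 and 0.80. The one with 1.17, chr2:11512200-11512450, had 0.713 to 1.29 CPM in young and 2.31 to 2.95 CPM in old libraries. It met the filter of 1.5 CPM only through the old ones. At Pfkfb2 a region that overlaps an exon with UTR, at chr1:130697518-130698166, rose by 1.82 on the log2 scale (1.25 ± 0.196 to 4.53 ± 0.388 CPM), while Pfkfb2 RNA had 30.3 CPM at both ages. Both intronic regions of Hk2 that passed rose by less, 0.52 and 0.39.

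The middle 300 bases of the Pfkp and Pfkfb3 regions are printed because these gained the most among genes whose RNA also rose. They were read on the plus strand of GRCm38.p6, at chr13:6642527-6642826 and chr2:11513169-11513468. Capitals mark TGANTCA (AP-1), TGTGGT (RUNX) and CACGTG (E-box) letters, searched on both strands with AGATAA and CCGGAAGT.
Pfkp region: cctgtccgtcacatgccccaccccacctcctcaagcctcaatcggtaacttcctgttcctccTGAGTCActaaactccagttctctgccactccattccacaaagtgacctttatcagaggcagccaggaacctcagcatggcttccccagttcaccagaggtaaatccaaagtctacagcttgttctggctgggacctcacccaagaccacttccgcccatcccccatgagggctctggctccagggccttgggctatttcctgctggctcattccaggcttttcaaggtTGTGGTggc
Pfkfb3 region: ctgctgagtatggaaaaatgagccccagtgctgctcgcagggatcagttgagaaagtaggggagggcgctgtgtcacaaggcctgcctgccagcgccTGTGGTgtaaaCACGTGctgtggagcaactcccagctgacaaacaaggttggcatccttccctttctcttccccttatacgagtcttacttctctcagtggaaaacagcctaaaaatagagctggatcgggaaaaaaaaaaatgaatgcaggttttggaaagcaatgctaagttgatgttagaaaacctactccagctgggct

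Among the middle 300 bases of 86123 accessible regions, TGANTCA stood in 11.8%, TGTGGT in 27.3% and CACGTG in 5.51%. The Pfkp window held TGANTCA and TGTGGT at 1 place each. The Pfkfb3 window held TGTGGT and CACGTG at 1 place each.

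**Figure D3:**
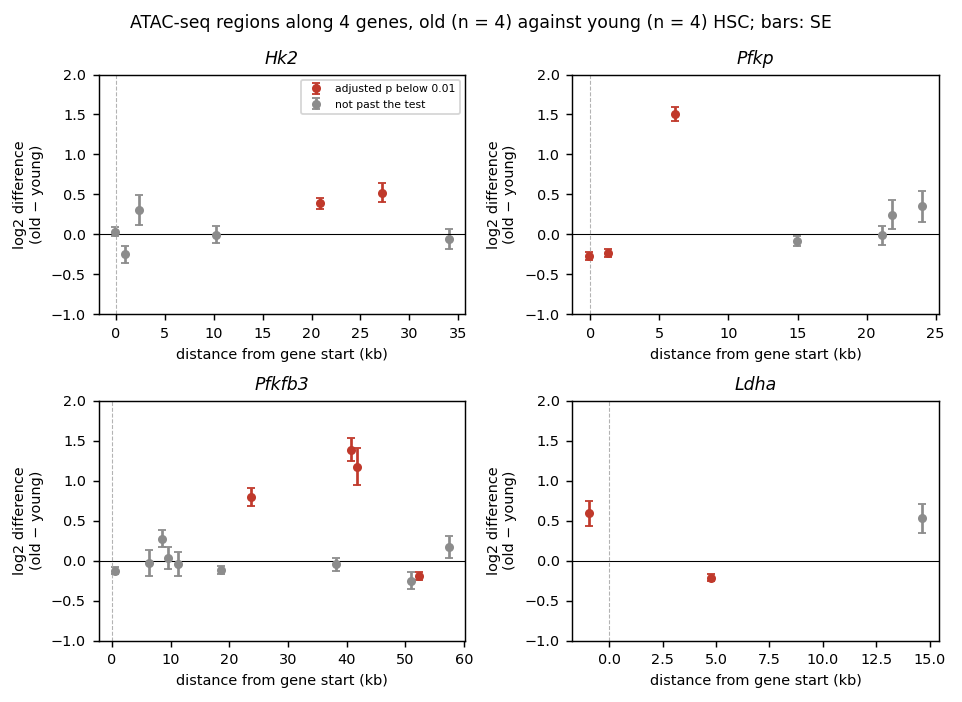
Log2 difference in ATAC-seq reads, old minus young HSC, of accessible regions along Hk2, Pfkp, Pfkfb3 and Ldha, plotted by distance in kilobases from the outermost gene start, with SE bars and red points past the test (n = 4 each). One Pfkp region 6.1 kb inside the gene reaches 1.505, and Pfkfb3 regions 40.8 and 41.8 kb inside reach 1.39 and 1.17, while called points at promoters lie slightly below 0 except the upstream Ldha region at 0.59. The 41.8 kb region met the filter of 1.5 CPM only through old libraries, with 0.713 to 1.29 CPM in young ones.

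H3K27ac, a mark of active promoters and enhancers, differed at 1 place by limma on the log2 scale (signal + 0.5). None of 39 peaks at the starts of 31 genes passed an adjusted p below 0.05, with 4 at an unadjusted p below 0.05, and their ratio of old to young signal ran from 0.718 to 1.40 (median 0.983). Of 27 peaks elsewhere at 11 genes 1 was higher, against 2.94% of 39557 peaks called in either direction. It is the Pfkfb3 peak at chr2:11512855-11513466, which overlaps the region that gained ATAC-seq reads. Its signal was 0.995 and 1.49 in young and 3.14 and 3.53 in old libraries, a ratio of 2.68 (limma adjusted p = 5.0e-04), and the call was lost without old replicate 2 (adjusted p = 0.0745). By the study's own fold rule, which calls 11.4% of peaks, a Pfkfb2 peak with a ratio of 1.66 also counted. The Ldha promoter peak had a ratio of 1.22 and did not pass (limma adjusted p = 0.259).

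In young HSC the 2 genes with the lowest RNA per kilobase next to Pfkfb1 carried H3K27me3, a repressive Polycomb mark. Pklr had no H3K4me3 peak and lay inside an H3K27me3 domain of 57999 bases with a mean signal of 0.868 (0.835 and 0.901 in the 2 libraries). Slc16a3 had an H3K27me3 domain at its start (0.614) together with an H3K4me3 peak, the mark of active starts. Hif1a and Hk1 also had H3K27me3 near a start, at 0.339 and 0.388, and Pfkm had 0.973 in its gene body. No H3K27me3 peak was listed at the other genes apart from a short one in Pfkfb4.

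Culture set the cells far apart from transplanted HSC. Between the control hairpin libraries of both settings, 25 of the 33 genes tested were higher in culture and 5 lower by edgeR. Over 19518 genes tested 24% were higher and 24.3% lower, 48.3% in either direction. Past 1.5-fold, 20 of the 33 were higher and 5 lower, against 12.6% and 15.2% of all genes (27.8% in all). The median log2 difference of the 33 was 1.42, against -0.01 over all genes. With scaling by library size alone, which moved all values by 0.15, 22 were higher and 5 lower. Pklr was not tested: it had 0 reads in all 6 cultured libraries, where 3 reads would be 0.0702 to 0.0804 CPM, and at most 0.328 CPM in transplanted ones.

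The lactate exporter Slc16a3, which is known as a HIF target in hypoxic cells, had 215 and 215 CPM in cultured and 4.39 and 4.60 CPM in transplanted controls. The log2 difference was 5.73 ± 0.07 (edgeR adjusted p = 8.99e-10), or 52.9-fold. Per kilobase of exon its group mean went from 0.845 to 40.4 CPM. Slc16a1, the other transporter, had 81.8 and 93.7 CPM in transplanted and 210.4 and 214 CPM in cultured controls, a log2 difference of 1.42. Aldoc, an aldolase best known from brain, had 18.1 and 21.9 CPM against 242 and 246 (log2 difference 3.75 ± 0.09).

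Enzymes of several steps and both glucose transporters were higher in culture. Eno1 (enolase) had 592 and 611 CPM in transplanted and 3169 and 3218 CPM in cultured controls, a log2 difference of 2.55 ± 0.04. Slc2a1 had 46.3 and 48.8 against 198 and 201 CPM (2.21 ± 0.06), Pgk1 114 and 123 against 473 and 474 CPM (2.15 ± 0.05) and Tpi1 384 and 407 against 1383 and 1427 CPM (1.97 ± 0.05). Ldha had 1177 and 1195 against 3422 and 3459 CPM (log2 difference 1.68), Pkm 1019 and 1116 against 3686 and 3795 CPM (1.95), and Hk2 57.5 and 70.2 against 181 and 189 CPM (1.68). Pfkp had 172 and 203 against 577 and 577 CPM (1.77), Slc2a3 259 and 274 against 807 and 824 CPM (1.76), and Pdk1 139 and 159.5 against 317 and 327 CPM (1.26). Hif1a rose by less, from 92.5 and 94.3 to 119 and 130 CPM (0.56, edgeR adjusted p = 0.000144). In each of these genes both cultured libraries lay above both transplanted ones.

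Lower in culture were 5 genes. Ldhb had 123 and 127 CPM in transplanted and 57.1 and 58.9 CPM in cultured controls (log2 difference -0.96 ± 0.06), so the 2 lactate dehydrogenase subunits went opposite ways. Hk3 fell from 77.9 and 87.1 to 19.2 and 23.4 CPM (-1.81) while Hk1 and Hk2 rose. Pdk2 fell by 1.51 and Pfkfb2 by 0.69 on the log2 scale. Pdk4, a kinase of fasting and fat oxidation, had 3.23 and 8.43 CPM against 0.536 and 1.68 (log2 difference -2.22 ± 0.65, edgeR adjusted p = 0.0325), and that call was lost without cultured control replicate 2 (adjusted p = 0.116). Pfkm, Eno2 and Eno3 did not pass the test.

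Of 12 other HIF target genes 10 were higher in culture (83.3%, against 48.3% of all genes called in either direction), with the vasodilator gene Adm at 7.03 and the collagen hydroxylase P4ha2 at 5.67 on the log2 scale. Of 8 HIF pathway regulators 4 were higher and 2 lower (75.0%), with the HIF hydroxylase Egln3 at 4.41. In the pentose phosphate pathway 6 of 7 were higher (85.7%). Of 23 other glycolysis and pyruvate genes tested, 6 were higher and 7 lower, a share of 56.5% that lies near that of all genes. Division and identity moved too: 10 of 10 proliferation genes were higher (Mki67 2.08, sum 2749 to 2765 against 1023 to 1218 CPM), and 5 of 8 HSC markers were lower and 1 higher (Procr -2.04). Of 6 megakaryocyte markers tested 3 were higher and none lower (sum 1857 to 1865 against 1115 to 1301 CPM), and of 8 erythroid markers 3 were higher and none lower by edgeR (sum 242 to 245 against 70.4 to 115.5 CPM), while DESeq2 called 3 higher and 3 lower. The granulocyte and monocyte markers summed to 388 to 397 CPM in cultured and 658 to 876 CPM in transplanted controls. Of 9 tested 8 had a negative log2 difference, and while edgeR called 1 higher and 1 lower (Lyz2 -0.98), DESeq2 called 1 higher and 7 lower. S100a8 had 0 reads in both cultured controls and 32.3 and 1.81 CPM in the transplanted ones. Culture, cell sorting and time since transduction differ between the settings and cannot be told apart, and the part of division or of other cells was not tested.

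**Figure D4:**
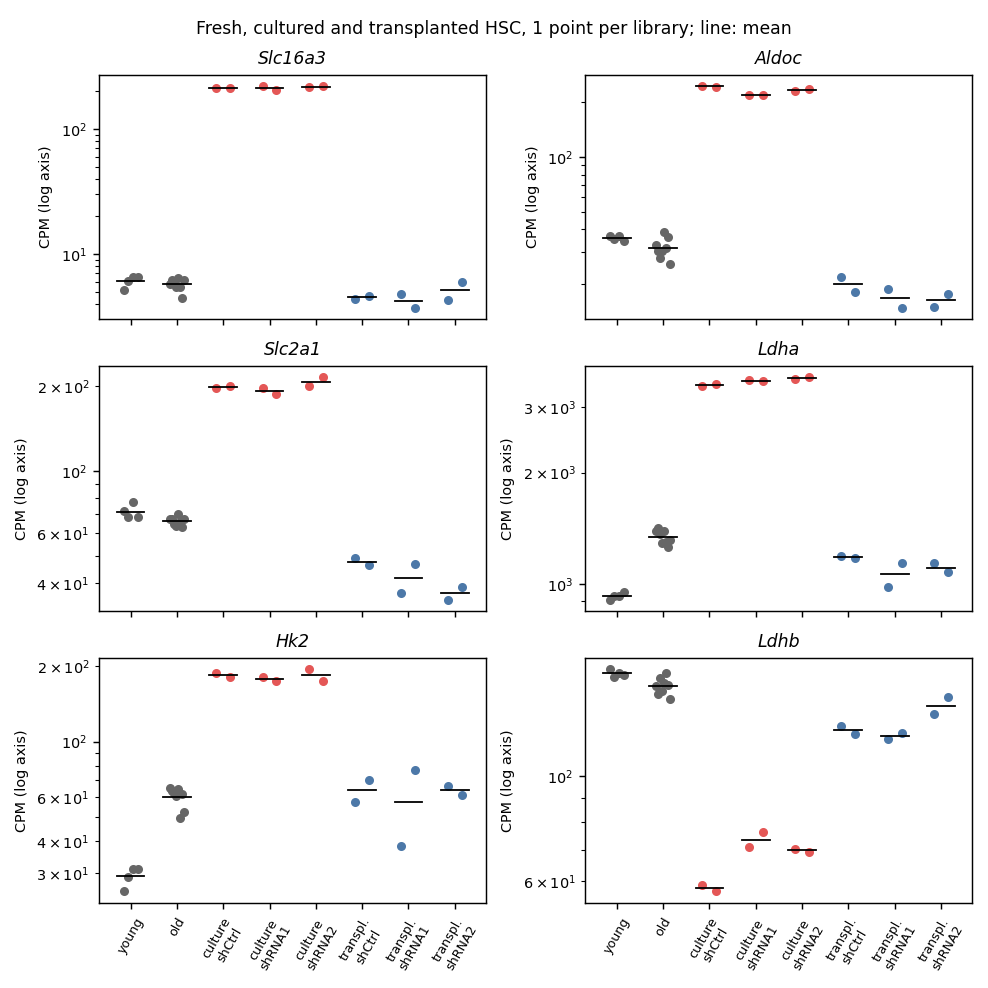
CPM on a log axis of 6 genes in young and old fresh HSC and in control and knockdown HSC after culture or transplantation, 1 point per library and a line at the mean. Slc16a3, Aldoc, Slc2a1, Ldha and Hk2 are highest in all 6 cultured libraries, Ldhb is lowest there, and within a setting the hairpin groups lie close together.

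Few of the genes passed a test after knockdown of the Btaf1 variant. The controls are those of the comparison of culture with transplantation, so the comparisons share libraries. The counts are per gene and do not separate the variant. Btaf1 had 137 and 141 CPM in cultured controls and 110.03, 111, 113 and 119 CPM in cultured knockdown libraries (log2 difference -0.31 ± 0.05, edgeR adjusted p = 0.00151, and 0.0745 without control replicate 2). After transplantation it had 161 and 165 against 118, 119, 131 and 139 CPM (-0.37 ± 0.08), which missed the test across all genes by edgeR (adjusted p = 0.791) and passed by DESeq2 (0.0277).

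In culture 3 of 33 genes passed, 1 higher and 2 lower (9.09%), against 3.36% of 19763 genes (1.7% higher, 1.66% lower). With shRNA1 alone 2 genes were higher and 3 lower, and with shRNA2 alone 5 were higher and 4 lower. None passed by more than 1.5-fold (0.906% of genes), and none met the study's rule of an unadjusted p below 0.05 and a fold above 1.5 (3.42% of genes, 2.45% higher). Ldhb had 57.1 and 58.9 CPM in controls and 69.2, 70.2, 70.8 and 76.1 CPM after knockdown (log2 difference 0.28 ± 0.06, edgeR adjusted p = 0.0151). Slc2a3 had 807 and 824 against 692, 728, 751 and 763 CPM (-0.17, 0.0191), and Hif1a 119 and 130 against 109, 111, 111 and 111 CPM (-0.19, 0.0497). In each gene the groups did not overlap, but without control replicate 1 or without control replicate 2 all 3 calls were lost, with adjusted p of 0.143 and 0.223 for Ldhb, 0.312 and 0.158 for Slc2a3 and 0.618 and 0.103 for Hif1a. The Slc2a3 call was also lost without shRNA2 replicate 2 (0.0528), and the Hif1a call was lost when any 1 of the 6 libraries was left out (0.054 to 0.618). At an unadjusted p below 0.05 10 genes passed. Hk2, Pfkp, Ldha, Slc2a1, Pkm and Pdk1 did not pass the adjusted test, with log2 differences of -0.04, 0.06, 0.03, -0.01, 0.02 and 0.05. Of 10 proliferation genes 5 were lower in the same libraries, with a sum of 2424 to 2663 CPM against 2749 to 2765. Of 6 erythroid markers tested 3 were lower, 2 of them past 1.5-fold (median -0.40, against 0.00 over all genes), with a sum of 155 to 182 CPM against 242 to 245. The part of either list was not tested.

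After transplantation none of the 33 genes passed by edgeR, where the share called over 20350 genes was also 0%, and none by DESeq2. At an unadjusted p below 0.05 5 genes passed. By the study's rule 2.24% of genes (1.43% higher, 0.811% lower) and none of the 33 were called. Hk2 ran from 38.2 to 77.1 CPM across these knockdown libraries against 57.5 and 70.2 in controls. The size of difference that such a spread could hide was not worked out. The log2 differences of Hk2, Pfkp, Ldha, Ldhb and Slc2a1 were -0.08, -0.01, -0.13, 0.06 and -0.29. Those of Slc2a3, Pkm, Pdk1 and Hif1a were 0.16, -0.09, -0.0018 and -0.04. The granulocyte marker sum ran from 658 to 1355 CPM over the transplanted libraries.

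The knockdown effect was compared between the settings by an interaction term. None of 33 genes passed by edgeR, against 0.21% of 21443 genes (0.107% higher, 0.103% lower), and 5 had an unadjusted p below 0.05. Slc2a3 had the lowest p of the 33. It was below both controls in all 4 cultured knockdown libraries and above both (259 and 274 CPM) in all 4 transplanted ones (279, 304, 305 and 305 CPM). The difference of the effects was -0.33 ± 0.07 on the log2 scale (edgeR adjusted p = 0.0836), and it passed by DESeq2 (0.00215), with no filter on low counts (0.0441) and without transplanted shRNA2 replicate 2 (0.0484).

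Between progenitors the isoenzymes switched. GMP had 18 of 32 genes higher and 7 lower than CMP, against 34.8% of 18234 genes called in either direction (18.8% higher, 16% lower). Past 1.5-fold, 11 were higher and 7 lower, against 6.24% and 10.5% of all genes (16.7% in all). The median log2 difference was 0.47, against 0.01 over all genes. With scaling by library size alone, which moved all values by 0.22, 14 were higher and 9 lower, and Ldha (0.17) and Pdha1 changed sign. Ldhb had 11.3 and 13.7 CPM in CMP and 57.4 and 66.7 CPM in GMP, a log2 difference of 2.53 ± 0.13 (edgeR adjusted p = 2.43e-08). Gpi1, glucose-6-phosphate isomerase, had 485 and 540 against 1089 and 1131 CPM (1.33). Hk3 rose by 1.1996 and Pkm by 0.97, and Slc16a3 and Pgam1 by 0.87 and 0.84. Slc2a3 had 44.4 and 55.7 against 16.1 and 19.7 CPM (-1.26), and Aldoc (-1.54), Pklr (-1.09), Pdk2 (-1.02), Pfkfb2 (-0.97) and Pfkm (-0.81) were lower too. Aldoc was at 0.563 and 0.663 CPM in GMP, and its call was lost without CMP replicate 1, GMP replicate 1 or GMP replicate 2 (adjusted p 0.104 to 0.435) and by DESeq2 (0.108). Pklr was at 0.121 and 0.394 CPM there and its call was lost without CMP replicate 1, CMP replicate 2, GMP replicate 2 or either MEP library (adjusted p 0.0557 to 0.403). Pfkp had 156 and 173 against 240.3 and 246 CPM (0.78). Pdk1 had 139 and 139.6 against 149.5 and 155 CPM (0.35) and Hif1a 95.3 and 98.7 against 104 and 112 CPM (0.38), and neither passed with scaling by library size alone (adjusted p 0.0723 and 0.133). Slc2a1 did not pass, at 27.3 and 30.3 against 23.6 and 25.7 CPM. Hk2 had 46.6 and 50.9 against 63.7 and 69.5 CPM (0.67 ± 0.48, edgeR adjusted p = 0.394), and it passed when either MEP library was left out of the fit (adjusted p 7.99e-05 and 8.45e-05). The pentose phosphate pathway had 7 of 7 genes higher in GMP, with G6pdx at 0.79.

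MEP, set beside the same CMP libraries, had 12 genes higher and 17 lower of 32, against 64.6% of 18234 genes (28.9% higher, 35.6% lower). Past 1.5-fold, 6 were higher and 13 lower, against 17.5% and 29.2% of all genes (46.7% in all). Scaling by library size alone moved all values by 0.12 and gave 10 and 17. Pyruvate kinase exchanged its isoenzymes. Pklr had 0.589 and 0.712 CPM in CMP and 182 and 186 CPM in MEP (log2 difference 8.25 ± 0.15), and Pkm had 917 and 962 CPM in CMP and 2.24 and 3.07 CPM in MEP (-8.35 ± 0.09). Hexokinase came down to Hk1: Hk3 had 247 and 284 against 0.396 and 0.732 CPM (-8.75), Hk2 46.6 and 50.9 against 0.623 and 3.89 CPM (-4.32 ± 0.65, edgeR adjusted p = 0.00884), and Hk1 343 and 353 against 541 and 544 CPM (0.76). The Hk2 call was lost without CMP replicate 1 (adjusted p = 0.0517) or CMP replicate 2 (0.0533). Per kilobase, Hk1 stood at 63.6 in MEP against 0.378 for Hk2 and 0.153 for Hk3.

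Phosphofructokinase and glucose transport shifted in the same cells. Pfkm, the muscle type that red cells also use, had 36.1 and 38.0 against 209 and 218 CPM (log2 difference 2.64), while Pfkp had 156 and 173 against 69.3 and 71.0 CPM (-1.11). Slc2a1 had 27.3 and 30.3 CPM in CMP and 0.225 and 0.679 CPM in MEP (-5.87), while Slc2a3 had 69.3 and 72.8 CPM in MEP (0.62). Pgam1 fell by 3.34, Pfkfb3 by 3.65, Ldhb by 2.59 and Hif1a by 1.43 on the log2 scale. Aldoc had 1.35 and 2.79 CPM in CMP and 0 and 0.113 CPM in MEP, where 3 reads would be 0.0845 to 0.0849 CPM. Its fitted fall of 5.00 is therefore uncertain in size. Pdk1 had 139 and 139.6 against 154 and 159 CPM (0.28). Slc16a1 had 197 and 203 against 552 and 607 CPM (1.65), and Eno3 rose by 1.38. Ldha had close levels in all 3 populations, at 1560 to 1586 CPM in CMP, 1519 and 1521 in GMP and 1552 and 1647 in MEP, where its small log2 difference from CMP was 0.14 (edgeR adjusted p = 0.00632) and was lost without CMP replicate 1 (0.0616), without MEP replicate 1 (0.144), with no filter on low counts (0.114) or with scaling by library size alone (log2 difference 0.0239, adjusted p = 0.616). Against GMP, MEP had 9 of 32 genes higher and 19 lower (61.4% of all genes called), with Pklr at 9.33, Pfkm at 3.45, Pkm at -9.32 and Hk3 at -9.95. Slc2a1 (-5.86), Ldhb (-5.12), Hk2 (-4.98), Pfkp (-1.90) and Hif1a (-1.81) were also lower and Slc2a3 (1.89) higher, while Ldha (-0.03) and Pdk1 (-0.06) did not pass.

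Markers moved with these differences. All 10 erythroid markers were higher in MEP than CMP, 9 of 11 granulocyte and monocyte markers were lower (sum 16446 to 19793 CPM in CMP, 56891 to 58118 in GMP, 39.9 to 72.7 in MEP), and 6 of 6 megakaryocyte markers tested were lower (631 to 642 CPM in CMP). Proliferation genes summed to 3268 CPM in CMP, 3372 to 3500.1 in GMP and 4228 to 4327 in MEP. In GMP against CMP, 6 of 6 megakaryocyte markers (median -3.73) and 6 of 7 HSC markers (-1.27) were lower, 7 of 10 erythroid markers were lower and 1 higher (-3.75), 7 of 11 granulocyte and monocyte markers were higher, and 7 of 10 proliferation genes were higher and 1 lower. Their part in the values above was not tested.

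**Figure D5:**
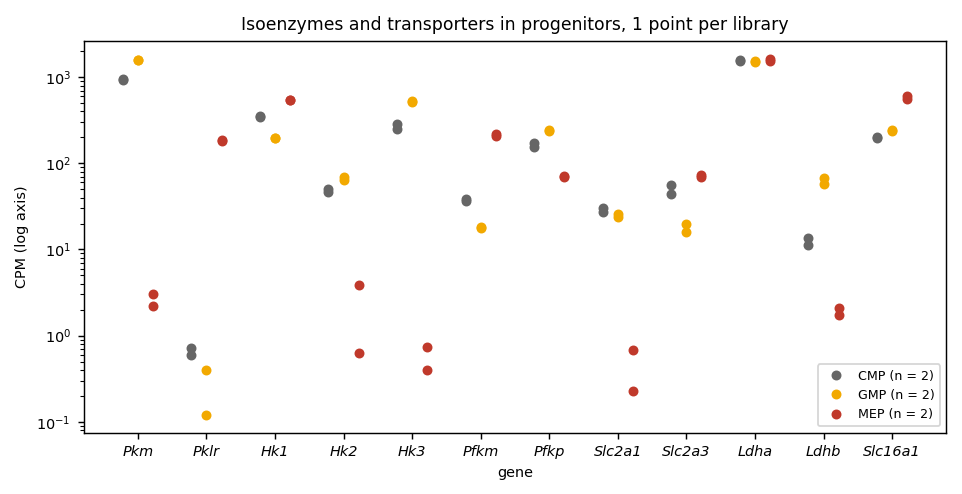
CPM on a log axis of 12 genes in the 2 CMP, 2 GMP and 2 MEP libraries, 1 point per library. Pkm, Hk2, Hk3 and Slc2a1 lie lowest in MEP, Pklr, Hk1, Pfkm and Slc16a1 lie highest there, and Ldha is at 1519 to 1647 CPM in all 6 libraries.

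CMP were also set beside young HSC, although the progenitor libraries were prepared apart from the HSC libraries, so preparation and cell type cannot be told apart, and although the same CMP and young HSC libraries serve in comparisons above. Of 34 genes 19 were higher and 12 lower in CMP, where 81.1% of 22360 genes were called (33.5% higher, 47.6% lower) and the median of all genes was -0.33. The median of the 34 was 0.39, and past 1.5-fold 11 were higher and 11 lower (23.3% and 40.8% of all genes, 64.2% in all). With scaling by library size alone, which moved all values by 0.38, 14 were higher and 15 lower, and Hk1, Aldoa and Pdk3 changed sign. Hk3 had 247 and 284 CPM in CMP and 44.7 to 50.9 CPM in young HSC (log2 difference 2.87). Pgam1 (2.10), Slc16a1 (1.68), Eno1 (1.13), Ldha (1.13) and Hk2 (1.122) were higher too. Ldhb had 162 to 168 CPM in young HSC and 11.3 and 13.7 CPM in CMP (-3.34 ± 0.08). Eno2 (-6.30), Aldoc (-3.73), Slc2a3 (-1.86) and Pklr (-1.85) were lower, as was Slc2a1 (-0.94). Eno2 had 0.023 and 0.036 CPM per kilobase in CMP against 2.79 to 3.75 in young HSC, so near the floor that the size of its fall is uncertain. Pfkp had 141 to 152 CPM in young HSC and 156 and 173 CPM in CMP (0.54), and Pkm 816 to 847 against 917 and 962 CPM (0.56). Hif1a, at 83.0 to 98.4 against 95.3 and 98.7 CPM (0.48), was called but not with scaling by library size alone (0.103, adjusted p = 0.125). Pdk1 had 168 to 189 CPM in HSC and 139 and 139.6 CPM in CMP and did not pass (0.05), and with scaling by library size alone it was lower (-0.33, adjusted p = 1.79e-05). Pdk4 had 10.7 to 14.6 CPM in young HSC and 0 reads in both CMP libraries, where 3 reads in a library would be 0.0822 to 0.0841 CPM. No read of Pdk4 was counted in GMP or MEP either, where 3 reads would be 0.0845 to 0.0904 CPM. The pentose phosphate pathway had 7 of 7 genes higher in CMP. Markers moved as well, with 10 of 10 proliferation genes higher (median 3.13), 8 of 8 HSC markers lower (-5.02) and 6 of 11 granulocyte and monocyte markers higher and 1 lower (3.04). Of 10 erythroid markers 6 were higher and 2 lower, and of 6 megakaryocyte markers tested 2 were higher and 4 lower. Their part was not tested.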

How the data were processed

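RNA-seq gene counts, ATAC-seq counts per consensus region and ChIP-seq signal per peak were analysed. The authors trimmed the reads, aligned RNA to mm10 with STAR and deposited featureCounts gene counts, which are raw. Strand and multi-mapping settings were not stated. They aligned ATAC-seq and ChIP-seq to mm10 with BWA, removed duplicates, called MACS peaks (for H3K27me3, broad domains from IDEAS chromatin states) and deposited raw counts per region and a signal scaled to a fixed number of reads. The way signal was averaged or summed within each peak was not stated. Per the methods, RNA of transplanted cells was extracted with phenol and chloroform, fresh HSC RNA with a column kit, and the amplification kits differed.

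Counts were tested by edgeR 4.0.16 (quasi-likelihood, robust, TMM, filterByExpr, R 4.3.3) with Benjamini-Hochberg adjustment over all genes. A call is an adjusted p below 0.05, or below 0.01 for ATAC-seq regions with at least 1.5 CPM in 4 libraries. A member's promoter spans 1000 bases before to 100 after a start. H3K27ac signal was tested by limma 3.58.1 on log2 (signal + 0.5). DESeq2 1.42.0, other scalings and filters, each hairpin alone, a replicate block, fold limits, another pseudocount and leaving out each library were alternatives. Scaling by library size alone was chosen after seeing the data. CPM values leave out spike-ins, and fitted log2 differences carry TMM factors. The scripts were tested on simulated data.

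The 34 genes, the other lists and the tests were chosen with earlier results of these data known. Key steps (Hk2, Pfkp, Ldha, Ldhb, Slc2a1, Slc2a3, Pkm, Pdk1 and Hif1a) were named throughout, and beside them up to 6 members per direction past the test and 1.5-fold. Of other lists 1 or 2 genes were named. Columns of the authors' own fold changes were not used, nor were 8 per-sample columns of old HSC (4 of ATAC-seq, the others of H3K4me3 and H3K27me3) that could not be tied to a labelled sample. No libraries of a group agreed within sampling noise (lowest chi-square per degree of freedom 4.42). Per the methods, old HSC RNA came from individual mice and young and transplanted HSC RNA from pools of mice. For cultured HSC and progenitors the sources used here do not say whether replicates are separate cultures or animals, and p-values there measure a spread that may be technical. Counting error is small at this depth for all but the lowest genes.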

Additional observations from a re-analysis of the deposited data

Results flagged for a closer look

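Within the young and old HSC groups 68 sets of RNA values and 24 sets of ATAC-seq values were checked for a library far from the others, and chance marks about 1 in 20 such sets. In RNA 3 sets were marked and in ATAC-seq 2.

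Eno2, the neuronal enolase, had 17.6 CPM in young library 2 against 13.1 to 13.9 CPM in the other young libraries. Pdk3 had 124 CPM in young library 1 against 115.0 to 116 CPM. Pkm had 1155 CPM in old library 1 against 1026 to 1076 CPM in the other old ones, which all lay above the young libraries too. The Hk1 intronic region at chr10:62321558-62321853 had 4.14 CPM in old ATAC-seq library 8 against 2.43 to 2.70 CPM. The Pfkfb3 intronic region at chr2:11512200-11512450 had 0.713 CPM in young ATAC-seq library 2 against 1.23 to 1.29 CPM.

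The knockdown effect of 2 genes pointed opposite ways in culture and after transplantation, with every knockdown library on 1 side of the controls in each setting. The share of all genes with this pattern was not counted, so the 2 cannot be set against it. For Slc2a3 the effect in culture minus that after transplantation was -0.33 on the log2 scale (edgeR interaction, adjusted p = 0.0836). For Ldha it was 0.16 (adjusted p = 0.565), from 3422 and 3459 CPM in cultured controls against 3515 to 3606 after knockdown, and 1177 and 1195 in transplanted controls against 985 to 1142. Neither passed the threshold.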

How the results depend on the processing

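Under the alternatives, counts of genes or regions stayed within 1.5 times the reported count in 283 cases and did not in 47. Values of single genes or regions kept direction and side of the threshold in 1336 cases, no longer passed in 67, newly passed in 10 and turned in 8. With a fold above 1.5 required, counts fell to 3 higher and 1 lower with age, 0 and 0 after knockdown in culture, 11 higher in GMP than CMP, 6 higher in MEP than CMP, 11 higher in CMP than HSC, and 0 promoter and 3 other ATAC-seq regions lower. Scaling by library size alone gave 6 lower with age and 2 higher and 0 lower after knockdown in culture. It turned the log2 differences of Ldha in GMP against CMP (-0.0494) and in MEP against GMP (0.0732) and of Pdk1 in MEP against GMP (0.0384) and in CMP against HSC (-0.33).

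The replicate numbers are not stated to pair samples. With them as a block, 6 genes were lower with age, 0 were lower after knockdown in culture, and Pdk1 in CMP against HSC was -0.0081. Hif1a with age then passed (-0.19, adjusted p = 0.0204), while calls were lost for Pdk4 in culture against transplantation (0.0574), for Aldoc (0.0748) and Pklr (0.0686) in GMP against CMP, and for Slc2a3 (0.0598) and Hif1a (0.0874) after knockdown in culture. No paired analysis was possible because young and old ATAC-seq libraries share no replicate numbers. In culture, knockdown gave 3 higher with no filter on low counts, 2 higher with shRNA1 alone, 5 higher and 4 lower with shRNA2 alone, 1 lower under RLE scaling, and 0 and 0 by the study's rule. The difference of knockdown effects gave 1 lower by DESeq2 and 1 with no filter. Setting H3K27ac libraries to the same median signal gave 2 start and 1 other peak lower, and the study's fold rule 2 other peaks higher. The causes were not tested.

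With any 1 library left out, the counts were 8 to 9 higher and 2 to 5 lower with age, 0 to 1 and 0 to 1 after knockdown in culture, 0 and 0 after transplantation, and 0 and 0 to 1 for the difference. It gave 22 to 26 and 4 to 5 for culture against transplantation, 17 to 20 and 5 to 6 for GMP against CMP, 10 to 12 and 16 to 17 for MEP against CMP, 9 and 18 to 19 for MEP against GMP, and 19 to 20 and 12 for CMP against HSC. ATAC-seq gave 0 to 1 and 12 to 15 at promoters and 8 to 11 and 5 to 9 elsewhere. H3K27ac gave 0 to 1 and 0 to 2 at starts and 0 to 3 and 0 to 1 elsewhere. Slc2a1 in GMP against CMP ran from -0.0770 to 0.0590, turning without CMP replicate 2 or GMP replicate 2 (0.0497), and Ldha in MEP against GMP from -0.0810 to 0.0084, turning without MEP replicate 2. Where this left 1 library, it was assumed to vary like the other groups. Depth limits the lowest genes, since 3 reads in a progenitor library are 0.0822 to 0.0904 CPM.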

Other observations

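Megakaryocyte markers went both ways with age: of 6 tested, 3 were higher and 2 lower by edgeR, where 11.9% and 8.67% of all genes were called. The sum of 8 markers was 2000.5 to 2312 CPM in old and 1701 to 1769 CPM in young HSC. In the pentose phosphate pathway, which branches from glucose-6-phosphate, the summed CPM of 7 genes was 784 to 815 in young HSC, 1527 to 1622 in CMP, 2063 to 2124 in GMP and 1688 to 1743 in MEP.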
